A study of Mus musculus with 28 samples.

Results

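The genes described here are 10 mouse liver genes of bile acid synthesis, conjugation, regulation and transport: Cyp7a1, Cyp8b1, Cyp27a1, Cyp7b1, Slc27a5, Baat, Nr1h4, Nr0b2, Slc10a1 and Abcb11. They were chosen by name, as the array probes whose gene name in the scanner files is a member, and make up 10 of the 21848 genes tested. Cyp7a1 and Baat had 2 probes each and every other member had 1, so that 12 probes were found. The scanner software called all 12 well above background on all 28 arrays, so no member was lost to the filter on dim probes.

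Liver RNA of 28 male C57/6J mice was hybridised to 1 array per mouse. All were 33 weeks old and had eaten their diet for 26 weeks, from an age of 7 weeks. The 5 groups ate a standard diet (SD, n = 5), a high fat diet (HFD, n = 6), or the high fat diet with 1 of 3 supplements. These were 0.4% quercetin (HQ, n = 5), 0.4% resveratrol (HR, n = 6), and 0.2% quercetin together with 0.2% resveratrol (HQR, n = 6), which is 4 g per kg of diet of a single polyphenol or 2 g per kg of each. No group ate the standard diet with a supplement, so every supplement effect was measured on the high fat diet only. The composition of the high fat diet and the hour at which livers were taken are not given in the sources used here.

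Bile acids are made from cholesterol in hepatocytes. In the classic route Cyp7a1 takes the first and rate-limiting step and Cyp8b1 adds the 12alpha-hydroxyl group that turns the product towards cholic acid; the alternative route starts with Cyp27a1 and goes on through Cyp7b1. Bile acids are then joined to taurine by Slc27a5 and Baat, pumped into bile by Abcb11 and taken back from portal blood by Slc10a1. They also bind the nuclear receptor FXR, encoded by Nr1h4, which induces Nr0b2 (SHP), a repressor of Cyp7a1 and Cyp8b1, and induces Abcb11, so that bile acids limit their own synthesis.

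The DNA just before the start of 3 members is shown to compare their letters: Cyp8b1, the member with the largest difference between diets, Nr0b2, the repressor, and Abcb11, the exporter that FXR induces. RefSeq's promoter table (GRCm38.p6) held 6 of the 10 members, with 7 promoters. The 250 bases before the start are printed 5′ to 3′ on the gene's own strand, in lower case with motif matches in capitals. They lie at chr9:121916306-121916555 (minus strand) for Cyp8b1, chr4:133553126-133553375 (plus strand) for Nr0b2 and chr2:69342617-69342866 (minus strand) for Abcb11.
Cyp8b1: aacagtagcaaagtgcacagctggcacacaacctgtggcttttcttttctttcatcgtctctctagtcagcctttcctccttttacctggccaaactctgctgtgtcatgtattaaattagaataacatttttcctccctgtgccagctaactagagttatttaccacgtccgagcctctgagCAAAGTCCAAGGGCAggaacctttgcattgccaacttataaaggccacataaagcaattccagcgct
Nr0b2: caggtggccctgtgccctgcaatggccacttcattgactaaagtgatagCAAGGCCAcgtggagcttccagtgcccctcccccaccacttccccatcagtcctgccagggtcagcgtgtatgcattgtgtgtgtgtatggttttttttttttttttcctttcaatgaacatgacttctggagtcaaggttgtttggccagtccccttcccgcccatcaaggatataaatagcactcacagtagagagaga
Abcb11: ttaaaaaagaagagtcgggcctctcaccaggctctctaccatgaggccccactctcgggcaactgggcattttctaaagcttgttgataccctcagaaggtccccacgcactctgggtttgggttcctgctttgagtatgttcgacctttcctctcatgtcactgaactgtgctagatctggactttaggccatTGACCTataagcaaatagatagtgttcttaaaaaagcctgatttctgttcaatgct

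Both strands were searched for 4 sets of letters. CAAAGTCCA, of the kind bound by HNF4alpha, was found in 0.384% of the 32851 promoters of the table, over the same 250 bases. CAAGGNCA, of the kind bound by LRH-1 (Nr5a2), was found in 5.53% of them, and AGGTCA, the core of many nuclear receptor sites, in 14.02%. The inverted repeat AGGTCANTGACCT, of the kind bound by FXR with its partner RXR, contains AGGTCA on each strand and was found in 0.00609%. Cyp8b1 held CAAAGTCCA from 67 to 59 bases before its start, and CAAGGGCA from 60 to 53 bases before it, so that the 2 matches overlap in the capitals printed above. Nr0b2 held CAAGGCCA from 201 to 194 bases before its start. Abcb11 held AGGTCA on the opposite strand, from 56 to 51 bases before its start; Nr1h4 and 1 of the 2 Slc10a1 promoters held it too. Only exact matches were counted. The full inverted repeat was not in any of the 7 windows, and Cyp27a1 held none of the 4. In Abcb11 the printed letters aggccatTGACCT, around the marked match, differ from that repeat at 1 letter. A match describes letters only, and the arrays did not measure binding.

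Levels are given as the log2 signal of a probe minus the 75th percentile of its array, so that 0 is the level of the probe at that percentile and 1 unit is a doubling. A level is compared only with the same probe in other livers, not between genes. Differences are given with the standard error (SE) of the linear model over all 28 arrays, and a gene passed at a Benjamini-Hochberg adjusted p under 0.05 over all genes tested (limma). Arrays lay on 9 slides and were scanned on 4 days. Between 59.8% and 82.3% of probes were well above background on an array, highest on slide 8, which carried HFD 5, HR 6 and HQR 4. Hepatocyte markers such as Alb and Apob were well above background on all 28 arrays.

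No member passed in any comparison between diets. The largest differences lay between the standard diet and the high fat diets, and there 3 members stood out by size or by separation of the livers: Cyp8b1, Baat and Nr1h4. Against the high fat diet alone, no member passed in a supplemented group.

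**Figure D1:**
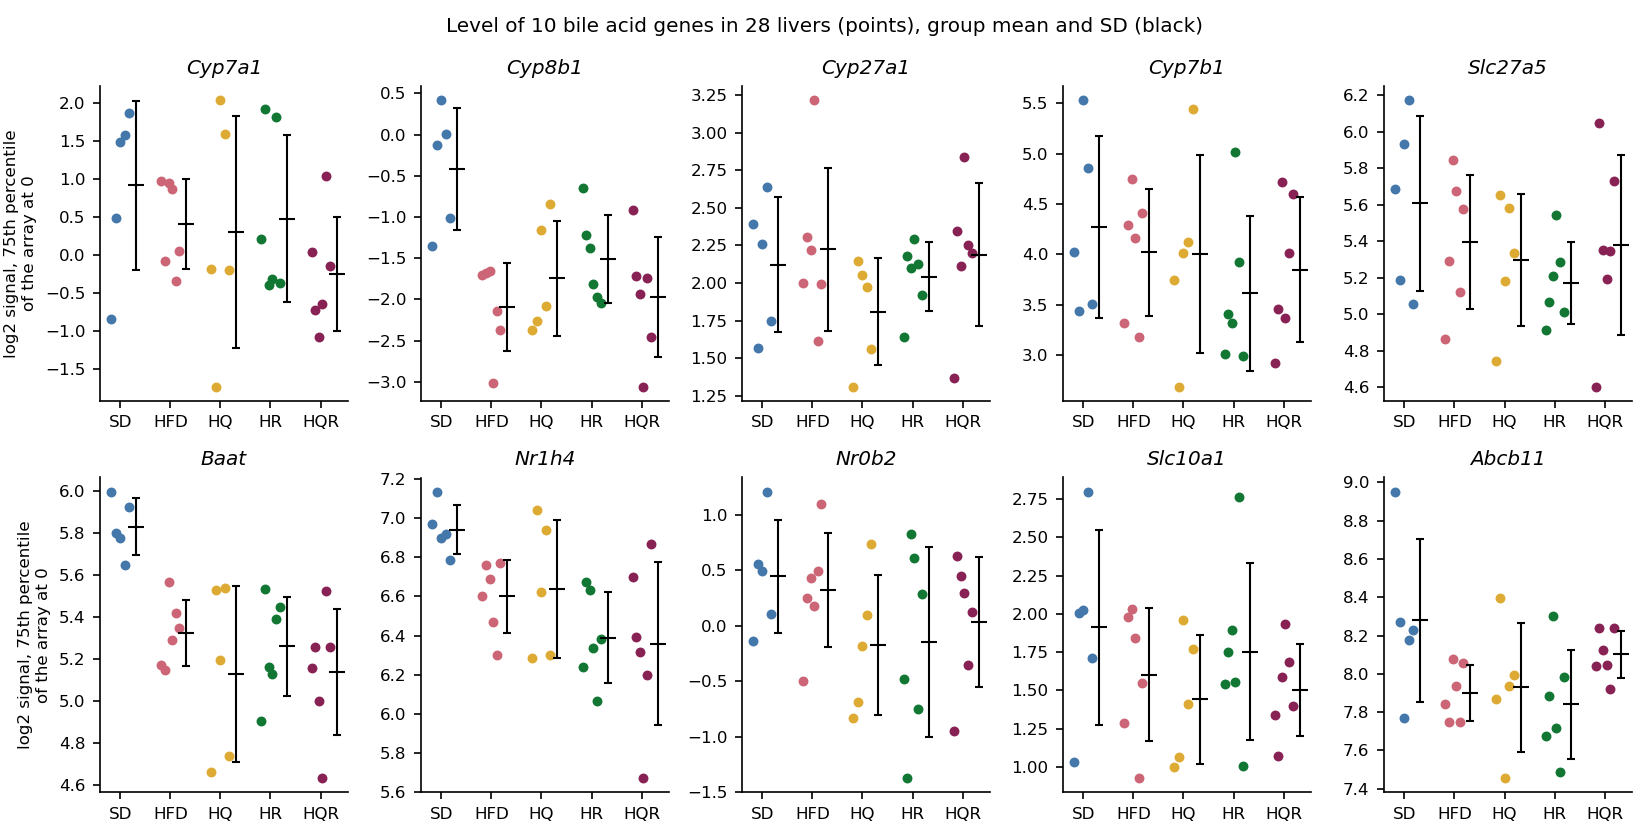
Level of each of the 10 genes in every liver (points, log2 signal with the 75th percentile of the array at 0, vertical axis scaled per gene) in the 5 diet groups, with group mean and SD in black. The 5 SD livers lie above all 23 other livers for Baat, and above all 6 HFD livers for Cyp8b1 and Nr1h4, while the groups overlap for Cyp7a1.

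Of the synthesis enzymes, Cyp8b1 had the largest difference. Its probe lies at chr9:121824595-121824654 (mm9, minus strand). The 5 SD livers measured -1.35, -0.12, 0.42, 0.01 and -1.01, with a mean of -0.41 ± 0.74 (SD, n = 5). The 6 HFD livers ran from -3.01 through a median of -1.92 to -1.65, with a mean of -2.09 ± 0.54 (SD, n = 6). The highest HFD liver was thus below the lowest SD liver.

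The difference between HFD and SD for Cyp8b1 was -1.68 ± 0.38 (SE), which is 3.20-fold lower in HFD, with a 95% confidence interval from -2.46 to -0.90. Its p was 0.000141, the 37th smallest among all genes, and its adjusted p of 0.0833 missed the threshold. In this comparison 25 genes passed, 0.114% of those tested. With slide as a random block the adjusted p was 0.0409 and without SD 1, the lowest SD liver, it was 0.0405, so Cyp8b1 passed under these alternatives. Over 42 alternatives the adjusted p ran from 0.0405 to 0.368. With slide as a fixed block the difference was -1.49 ± 0.39 (adjusted p = 0.219), and on the 4 slides with both an SD and an HFD liver it was -0.35, -1.56, -1.66 and -1.36.

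The 3 supplemented groups were on the same side. Cyp8b1 averaged -1.74 ± 0.70 (SD, n = 5) in HQ, -1.51 ± 0.53 (SD, n = 6) in HR and -1.97 ± 0.73 (SD, n = 6) in HQR. Against SD these were differences of -1.33 ± 0.39 in HQ (adjusted p = 0.623), -1.10 ± 0.38 in HR (adjusted p = 0.521) and -1.55 ± 0.38 in HQR (adjusted p = 0.136). All 23 high fat livers were below the SD mean and 18 of them below the lowest SD liver; the other 5 were among HQ, HR and HQR.

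A comparison added after the data were seen set the mean of the 4 high fat groups against SD, so that all 23 high fat livers count. In it 35 genes passed, 0.16% of those tested. Cyp8b1 differed by -1.42 ± 0.31 (SE), 2.67-fold lower, with an adjusted p of 0.0534. It passed under 7 of 41 alternatives, with an adjusted p between 0.0188 (slide as a random block) and 0.217 (without SD 4). Without the 3 arrays of slide 8 it was -1.33 ± 0.30.

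Cyp7a1, the rate-limiting enzyme, varied widely between livers of the same diet. Its main probe lies at chr4:6193456-6193515 (mm9, minus strand). The SD livers measured -0.83, 0.49, 1.48, 1.58 and 1.87, a mean of 0.92 ± 1.11 (SD, n = 5). The HQ livers measured -0.18, -1.73, 2.04, 1.59 and -0.19, so that the lowest and the highest of all 28 livers both ate the quercetin diet.

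In HFD Cyp7a1 ran from -0.34 through a median of 0.46 to 0.97, in HR from -0.38 through -0.05 to 1.93, and in HQR from -1.07 through -0.39 to 1.05. Every group overlapped every other. The spread within groups was an SD of 1.04, at the 95.4th percentile of all genes tested, against a median of 0.48. HFD differed from SD by -0.51 ± 0.59 (SE; adjusted p = 0.958), and the interval from -1.73 to 0.71 holds large differences in either direction. The largest of its differences from SD was that of HQR, at -1.17 ± 0.59 (adjusted p = 0.802).

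The second Cyp7a1 probe, at chr4:6195632-6196238 (mm9; its 60 bases span 607 bases of the genome), gave -0.58 ± 0.51 for HFD against SD. The 2 probes correlated at r = 0.820 over the 28 livers, so most of the spread between livers was seen by both. Cyp7a1 and clock genes are known to vary over the day. The summed level of 11 clock and clock output genes, among them Dbp, Per1 and Arntl, ran from 3.83 to 5.31 in SD and 4.58 to 5.84 in HFD. It ran from 3.99 to 6.86 in HQ, 3.52 to 5.79 in HR and 3.91 to 6.64 in HQR. Single genes of the list differed by -0.71 to 1.75 in HFD against SD, which the sum does not show. The part of these genes in the spread of Cyp7a1 was not tested.

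The enzymes of the alternative route showed no separation. Cyp27a1, which hydroxylates the cholesterol side chain in mitochondria and whose probe lies at chr1:74782203-74782262 (mm9, plus strand), averaged 2.12 ± 0.45 (SD, n = 5) in SD and 2.22 ± 0.54 (SD, n = 6) in HFD. It was the only member above SD in HFD, by 0.10 ± 0.26 (SE; adjusted p = 0.961). Its highest liver was HFD 4, at 3.21, and its lowest HQ 1, at 1.31.

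Cyp7b1, the oxysterol 7alpha-hydroxylase (probe at chr3:17972286-17972345, mm9, minus strand), averaged 4.27 ± 0.90 (SD, n = 5) in SD, 4.02 ± 0.63 (SD, n = 6) in HFD, 4.00 ± 0.99 (SD, n = 5) in HQ, 3.62 ± 0.77 (SD, n = 6) in HR and 3.85 ± 0.72 (SD, n = 6) in HQR. Slide accounted for 61.4% of its variance over the 28 livers and diet group for 8.13%, each taken alone, against medians of 51.2% and 10.1% over all genes. The HFD difference from SD was -0.25 ± 0.46 (SE; adjusted p = 0.958), well inside that spread.

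Of the 2 conjugation enzymes, Baat separated the diets in every liver. Baat joins the bile acid, activated as a coenzyme A ester, to taurine or glycine. Its main probe starts at chr4:49502275 (mm9, minus strand), where the array files place 12 of its 60 bases. The 5 SD livers measured 5.99, 5.80, 5.78, 5.65 and 5.92, a mean of 5.83 ± 0.13 (SD, n = 5). The highest of the 23 high fat livers, HFD 3, measured 5.56.

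Baat averaged 5.32 ± 0.16 (SD, n = 6) in HFD, 5.13 ± 0.42 (SD, n = 5) in HQ, 5.26 ± 0.24 (SD, n = 6) in HR and 5.14 ± 0.30 (SD, n = 6) in HQR. Only 5 of the genes measured in every liver, 0.0231%, had all 23 high fat livers below all 5 SD livers; the other 4 were Cbx7, H2-Q1, Rdh16f2 and Lama3, named after their values were seen. Diet group accounted for 51.1% of the variance of Baat, against a median of 10.1% over all genes.

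In size the Baat difference was modest: -0.51 ± 0.18 (SE) for HFD against SD (adjusted p = 0.537), and -0.62 ± 0.14 for the 4 high fat groups against SD, which is 1.53-fold lower (adjusted p = 0.0689). It passed under 2 of 41 alternatives, with slide as a random block (adjusted p = 0.0268) and with only probes well above background on all 28 arrays (0.0414), while with normexp background correction the adjusted p was 0.594. On each of the 5 slides with an SD liver the high fat mean minus the SD level was below 0, between -0.998 and -0.419, and with slide as a fixed block the difference was -0.59 ± 0.17 (adjusted p = 0.139). The second Baat probe, at chr4:49502933-49502992 (mm9), gave -0.44 ± 0.20 for HFD against SD; its HFD livers, at most 1.83, stayed below its lowest SD liver, 1.86, but the HR livers, at most 1.94, and the HQR livers, at most 1.91, did not.

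Slc27a5, the bile acid coenzyme A ligase that works just before Baat (probe at chr7:13573924-13573983, mm9, minus strand), averaged 5.61 ± 0.48 (SD, n = 5) in SD and 5.40 ± 0.37 (SD, n = 6) in HFD. The difference was -0.21 ± 0.24 (SE; adjusted p = 0.958), and 18 of 23 high fat livers were below the SD mean. Its SD livers ran from 5.06 to 6.17 and the high fat livers from 4.60 to 6.04, so the groups overlapped.

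**Figure D2:**
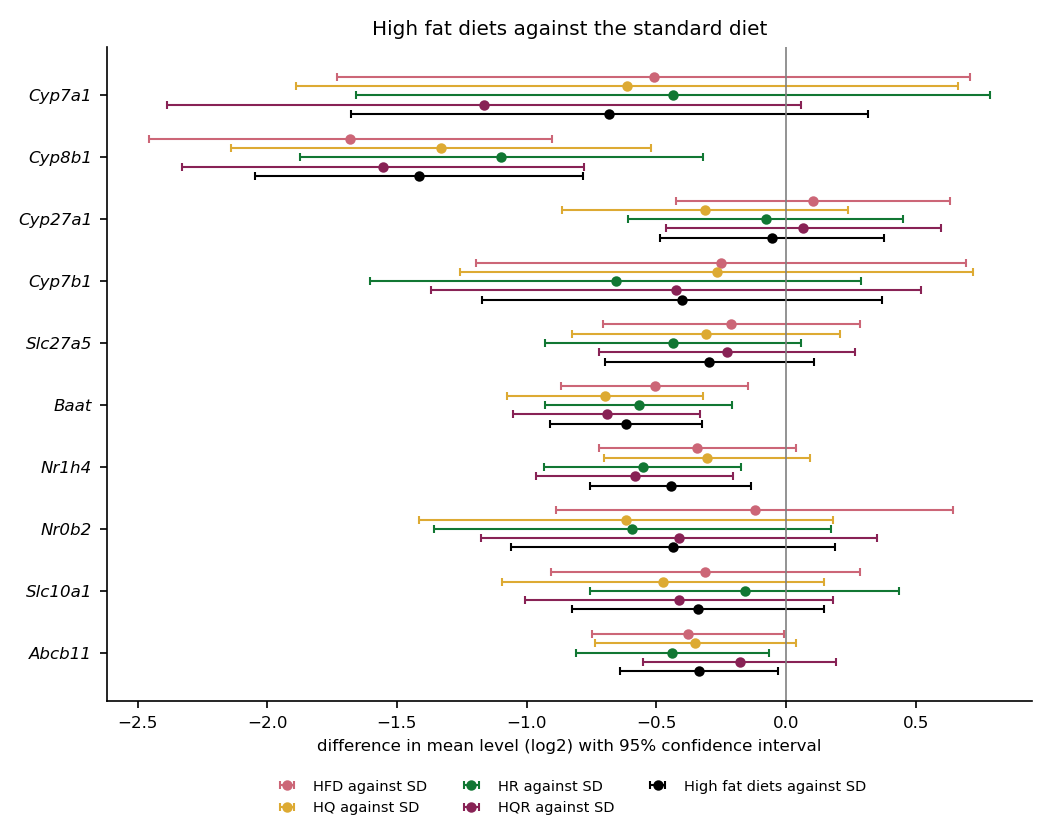
Difference of each high fat group from the standard diet (coloured) and of the mean of the 4 high fat groups from it (black), in log2 units with 95% confidence intervals (horizontal axis), for the 10 genes. Cyp8b1 and Baat have intervals below 0 in all 5 rows, and Cyp7a1 has the widest intervals, all of which include 0.

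Of the regulators, Nr1h4, the gene of FXR, was lower in most high fat livers, by a small amount. Its probe lies at chr10:88917299-88917358 (mm9, minus strand). The SD livers measured 6.97, 7.13, 6.90, 6.92 and 6.79, a mean of 6.94 ± 0.13 (SD, n = 5). The HFD livers ran from 6.30 through 6.65 to 6.77, just below the lowest SD liver, and the HR livers from 6.07 through 6.36 to 6.68, also below it.

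In HQ and HQR the ranges of Nr1h4 crossed into SD: HQ 2 measured 7.04 and HQ 4 measured 6.94, and HQR 6 measured 6.87. In all, 20 of 23 high fat livers lay below the lowest SD liver. The difference was -0.34 ± 0.18 (SE; adjusted p = 0.868) for HFD, -0.55 ± 0.18 (adjusted p = 0.495) for HR, -0.58 ± 0.18 (adjusted p = 0.390) for HQR and -0.30 ± 0.19 (adjusted p = 1.00) for HQ. For the 4 high fat groups together it was -0.45 ± 0.15, 1.36-fold lower (adjusted p = 0.343). With slide as a fixed block the HFD difference was smaller, at -0.18 ± 0.18 (adjusted p = 0.654), and on the 4 slides with both groups it was -0.36, -0.37, -0.23 and -0.01.

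Nr0b2, the gene of SHP, which has no DNA-binding domain and acts through other receptors (probe at chr4:133109694-133109753, mm9, plus strand), spread widely in every group. The SD livers measured -0.13, 0.55, 0.49, 1.20 and 0.11, and the HFD livers ran from -0.50 through 0.33 to 1.09. HFD differed from SD by -0.12 ± 0.37 (SE; adjusted p = 0.965). The lowest liver was HR 2, at -1.37, which had the second highest level of Cyp7a1, 1.93 on that gene's own scale. HQ 2, with the lowest level of Cyp7a1 (-1.73), was low for Nr0b2 too, at -0.69, below the lowest SD liver.

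Of the transporters, Abcb11, the bile salt export pump (probe at chr2:69076390-69076449, mm9, minus strand), was slightly lower in the high fat groups. The SD livers measured 8.95, 8.27, 7.77, 8.18 and 8.23, and the HFD livers ran from 7.75 through 7.89 to 8.08. All 6 HFD livers were below the SD mean of 8.28 ± 0.43 (SD, n = 5), but 4 of them were above the lowest SD liver. The difference was -0.38 ± 0.18 (SE, adjusted p = 0.802) for HFD, -0.44 ± 0.18 (adjusted p = 0.729) for HR and -0.35 ± 0.19 for HQ. It was -0.18 ± 0.18 (adjusted p = 0.993) for HQR, whose livers lay close together between 7.92 and 8.24. Much of this rested on SD 1, the highest of all livers. Without SD 1 the differences were -0.21 ± 0.17 for HFD, -0.27 ± 0.17 for HR, -0.18 ± 0.18 for HQ and -0.010 ± 0.17 for HQR.

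Slc10a1, the sodium taurocholate cotransporter (NTCP; probe at chr12:82061470-82061529, mm9, minus strand), averaged 1.91 ± 0.64 (SD, n = 5) in SD, 1.60 ± 0.43 (SD, n = 6) in HFD, 1.44 ± 0.42 (SD, n = 5) in HQ, 1.75 ± 0.58 (SD, n = 6) in HR and 1.501 ± 0.300 (SD, n = 6) in HQR. HFD differed from SD by -0.31 ± 0.29 (SE; adjusted p = 0.958). Slide accounted for 54.8% of its variance and diet group for 12.5%, close to the same medians over all genes.

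Taken as a set, the members were mostly below SD. In HFD 9 of 10 were below, with a median difference of -0.33; over all genes tested 55.4% were below 0 and the median was -0.04. Of the 10, 3 had an unadjusted p under 0.05 (Cyp8b1, Baat and, with its difference resting largely on SD 1, Abcb11) against 6.14% of all genes, and 0 passed. Cyp8b1, Nr1h4 and Baat, 3 of 10, had all HFD livers below all SD livers, against 0.734% of all genes.

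Against SD, 10 of 10 members were lower in HQ (median -0.41) and in HR (median -0.50), and 9 of 10 in HQR (median -0.42). Over all genes tested 58.0%, 57.3% and 48.8% were below 0, with medians of -0.05, -0.05 and 0.01. The limma test called 0 members in each, with unadjusted p under 0.05 for 2, 4 and 3 of the 10 members, against 3.91%, 5.72% and 6.43% of all genes. At the adjusted threshold it called, over all genes, 0.0366% in HQ, 0.0549% in HR and 0.0503% in HQR. Livers did not overlap with SD for 1 member in HQ (Baat, against 0.23% of all genes), for 2 in HR (Nr1h4 and Baat, against 0.353%) and for 1 in HQR (Baat, against 0.431%). These comparisons share the 5 SD livers, so they are not independent of each other. In the test over the 5 diets 0 members and 0.105% of all genes passed; the smallest adjusted p of a member was 0.350, for Cyp8b1.

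Markers of hepatocytes in general lay lower in the same livers. Of 6 hepatocyte markers 6 were lower in the 4 high fat groups than in SD, with a median difference of -0.36 and 0 past the threshold, and their summed level ran from 9.96 to 11.2 in SD, 9.55 to 10.7 in HFD, 9.81 to 10.8 in HQ, 9.73 to 10.47 in HR and 9.82 to 10.55 in HQR. Of 6 pericentral hepatocyte markers 6 were lower, with a median of -0.58, and 4 of 5 periportal markers were lower, with a median of -0.27; the pericentral sum ran from 7.76 to 8.52 in SD and from 6.79 to 8.58 over the 4 high fat groups. Over all genes tested 55.5% were below 0 in this comparison. Of 8 sinusoidal endothelium markers 6 were higher, with a median of 0.42. By group, their median against SD was 0.06 in HFD, 0.42 in HQ, 0.74 in HR and 0.39 in HQR. Of 8 stellate cell markers 1 was lower, with a median of 0.34. Of 7 Kupffer cell markers 4 were lower (median -0.18), as were 4 of 8 bile duct cell markers (median -0.02). The Kupffer cell median against SD was -0.51 in HFD, -0.23 in HQ, 0.38 in HR and -0.05 in HQR. The part of these markers in the members' differences was not tested, and in whole liver fewer cells of a type and less RNA per cell cannot be told apart.

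Whether quercetin, resveratrol or both moved these genes was tested against HFD. No member passed: limma called 0 members and 0% of all genes for HQ, 0 members and 0.00915% of all genes (2 genes) for HR, and 0 members and 0% for HQR. At an unadjusted p under 0.05 there were 0 members in each, beside 465, 1074 and 298 genes in all (2.13%, 4.92% and 1.36%). Of the 10 members 7 were below HFD in HQ, 7 in HR and 8 in HQR, with medians of -0.10, -0.12 and -0.14; over all genes 50.9%, 47.9% and 41.6% were below 0, with medians of -0.005, 0.01 and 0.05.

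Cyp8b1 was above its HFD level in each supplemented group, by 0.35 ± 0.38 (SE) in HQ, 0.58 ± 0.36 in HR and 0.13 ± 0.36 in HQR. The HQ difference lost its sign with slide as a block, at -0.03, and that of HQR without HQR 1 (-0.08) or without HFD 4 (-0.06). The intervals, from -0.43 to 1.13, from -0.16 to 1.32 and from -0.61 to 0.87, all include 0. Nr0b2 differed by -0.49 ± 0.37 in HQ, -0.47 ± 0.35 in HR and -0.29 ± 0.35 in HQR. For Baat the 3 intervals reached no higher than 0.28, and for Cyp7a1 they ran from -1.82 to 1.24, so the array numbers leave a wide range for that gene.

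**Figure D3:**
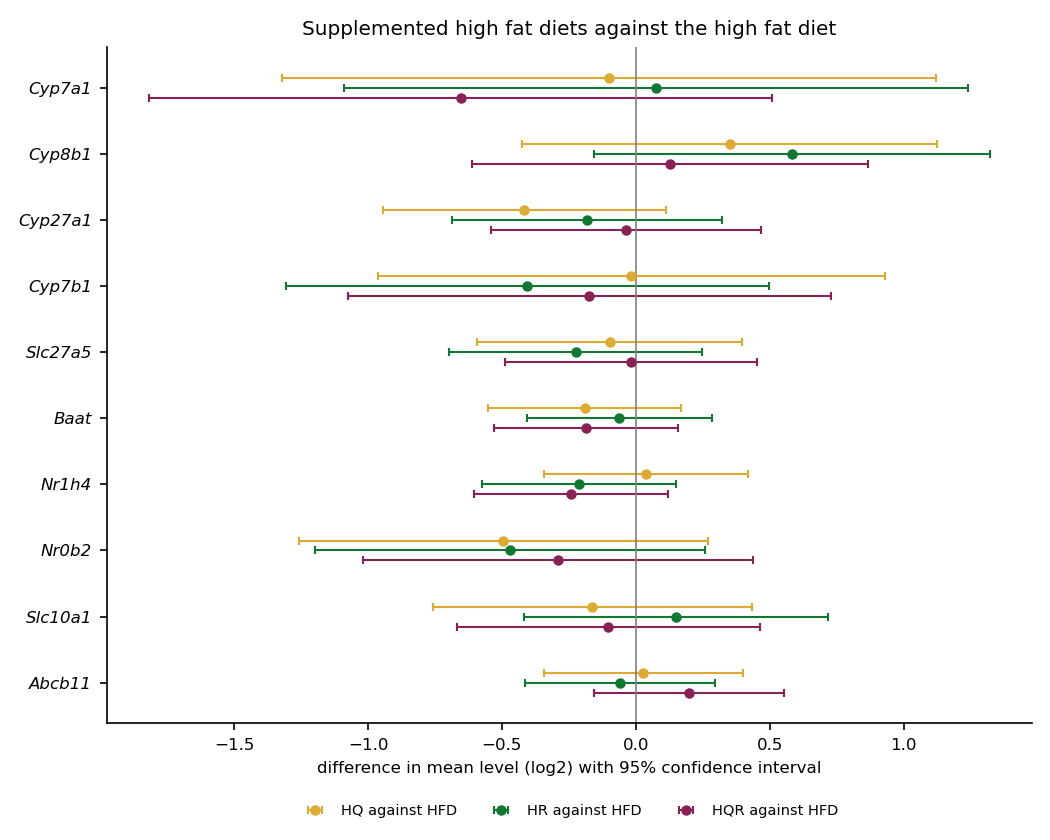
Difference of each supplemented group from the high fat diet alone, in log2 units with 95% confidence intervals (horizontal axis), for the 10 genes. All 30 intervals include 0.

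Quercetin and resveratrol, a flavonol and a stilbene, were fed at the same 0.4% for the same 26 weeks and could be compared directly. For the 10 members HQ minus HR ran from -0.31 ± 0.29 (SE) for Slc10a1 to 0.39 ± 0.46 for Cyp7b1; 6 of 10 were below 0. The limma test called 0 members and 0% of all genes, and 282 genes but 0 members had an unadjusted p under 0.05. The narrowest interval was that of Baat, from -0.49 to 0.23, and the widest that of Cyp7a1, from -1.40 to 1.04. In these data the 2 compounds were therefore not told apart by these genes, which leaves differences inside those intervals possible. HQR holds a lower dose of each compound, so its values stand beside the others without a comparison.

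Of the members' relations to each other, 6 pairs were tested over the 28 livers, as deviations from the diet means with a two-sided permutation test. Nr0b2 and Cyp7a1, repressor and target, correlated at r = -0.28 (p = 0.209, adjusted over the 6 pairs 0.320) and rho = -0.36 (p = 0.107, adjusted 0.264). Without the 2 livers farthest from the median of Nr0b2, HR 2 and HQR 1, r was -0.16. With slide means also removed, r was -0.59 (adjusted permutation p = 0.0240). HQ 3, alone on its slide, then carries no deviation. The permutation exchanged livers within diets without regard to slide. This p can thus be too small and is not read as a pass. The other alternatives run for this pair did not pass.

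Nr0b2 and Cyp8b1 showed r = 0.01 (p = 0.941, adjusted 0.941) and rho = 0.05 (p = 0.816, adjusted 0.923). Slc10a1 and Abcb11, importer and exporter, had r = -0.46 (p = 0.0485, adjusted 0.291) and rho = -0.32 (p = 0.142, adjusted 0.264), and r = -0.40 without SD 4 and HR 5. Cyp7a1 and Cyp8b1 had r = 0.27 (p = 0.213, adjusted 0.320; rho = 0.29, p = 0.176, adjusted 0.264; r = 0.20 without HQ 3 and HR 2). Baat and Slc27a5, successive steps of conjugation, had r = 0.29 (p = 0.159, adjusted 0.320; rho = 0.29, p = 0.167, adjusted 0.264; r = 0.28 without HQR 4 and SD 1). Nr1h4 and Nr0b2 had r = -0.09 (p = 0.671, adjusted 0.805; rho = -0.02, p = 0.923, adjusted 0.923; r = -0.12 without HQR 4 and HR 5). None of the 6 pairs passed after adjustment in the main analysis, and for Nr0b2 with Cyp8b1 r was 0.22 without HR 2 and HQR 1.

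**Figure D4:**
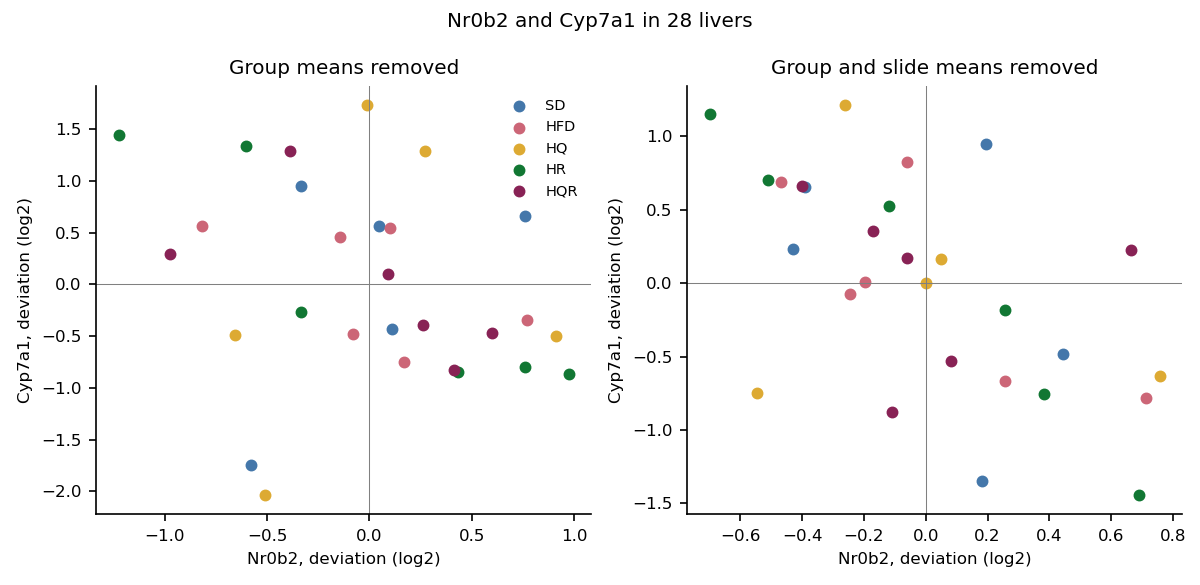
Deviation of Cyp7a1 (vertical axis, log2) against that of Nr0b2 (horizontal axis, log2) in the 28 livers, coloured by diet, after removal of the diet means (left, r = -0.28) and of the diet and slide means (right, r = -0.59). SD 1 and HQ 2, at the bottom of the left panel, are low for both genes.

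The genes whose levels followed a member most closely over the 28 livers, diet differences included, are given as a description. For Cyp7a1 they were AA261046 (r = 0.715), Flvcr2 (r = 0.702) and Notum (r = 0.696). For Cyp8b1 they included Taok3 (r = 0.848) and Atf5 (r = 0.799). For Nr0b2 they were Nags (r = 0.792), AV104666 (r = 0.784) and Pmf1 (r = 0.773), and for Abcb11 Ercc3 (r = 0.810), Ift46 (r = 0.779) and Trip4 (r = 0.758). None of these genes is another member, and livers that share a slide or a diet enter these values together.

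The rest of the pathway was read from 4 lists. Of 17 other synthesis enzymes 17 were measured, of 17 other transporters 15, of 20 other regulators 20, and of 8 detoxification genes 7. In every comparison 0 of them rose and 0 fell. In the 4 high fat groups against SD the median differences were 0.08, -0.01, -0.15 and -0.21, against -0.42 for the 10 members and -0.03 for all genes tested. Below SD were 7 of the 17 enzymes, 8 of the 15 transporters, 15 of the 20 regulators and 7 of the 7 detoxification genes.

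Among the genes named from these lists, Slco1a4 had differences from SD of the size of Cyp8b1, and Cyp39a1 did in HQR only. Those of Fdxr were smaller. Slco1a4, an organic anion and bile acid uptake carrier, was at -1.84 ± 0.41 (SE; adjusted p = 0.0600) in the 4 high fat groups against SD and at -2.42 ± 0.50 (adjusted p = 0.0569) in HQR against SD. Fdxr, the reductase that passes electrons to mitochondrial cytochromes P450 such as Cyp27a1, was at -1.07 ± 0.24 (adjusted p = 0.0845) in HFD against SD and -0.83 ± 0.20 (adjusted p = 0.0769) in the 4 groups. Cyp39a1, a hydroxylase of oxysterols, was at -1.74 ± 0.40 (adjusted p = 0.108) in HQR against SD and at -0.89 ± 0.33 (adjusted p = 0.438) in the 4 groups. It was well above background on 17 of 28 arrays only.

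Ppargc1a, a coactivator of fasting metabolism that also acts with Hnf4a, was at -0.97 ± 0.29 (adjusted p = 0.419) in HFD and -0.86 ± 0.24 (adjusted p = 0.184) in the 4 groups against SD. Foxa2, a liver transcription factor, was at 0.76 ± 0.30 (adjusted p = 0.646) and 0.95 ± 0.24 (adjusted p = 0.118), and Abcg8, 1 of the 2 subunits of the sterol exporter, at 0.87 ± 0.25 (adjusted p = 0.329) and 0.69 ± 0.20 (adjusted p = 0.222). Sult2a8, a bile acid sulfotransferase, differed by 0.13 ± 0.19 (adjusted p = 0.958) in HFD against SD and -0.48 ± 0.18 (adjusted p = 0.944) in HR against HFD. Cyp2b10, a target of the receptor CAR, was at -2.22 ± 0.55 (adjusted p = 0.9999) in HQ against HFD. Against HFD it was also lower in HR, at -1.35 ± 0.53 (adjusted p = 0.944), and in HQR, at -1.71 ± 0.53 (adjusted p = 0.987). In HFD against SD it was at 0.99 ± 0.55 (adjusted p = 0.878). Its signal was well above background on 9 of 28 arrays.

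**Figure D5:**
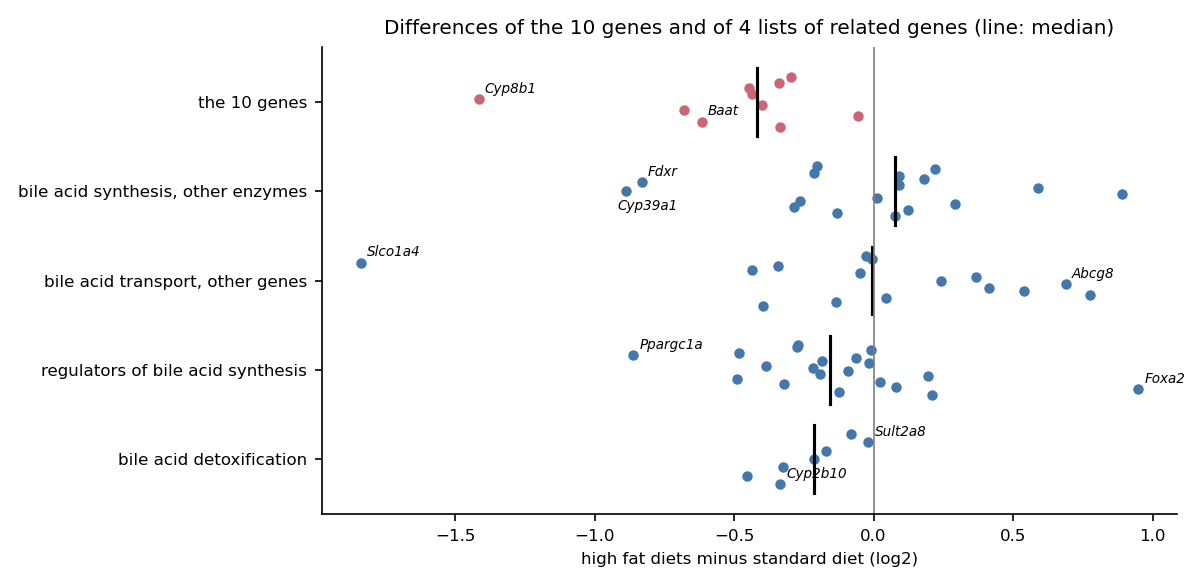
Difference between the mean of the 4 high fat groups and the standard diet (horizontal axis, log2) for each of the 10 genes (red) and for the genes of 4 lists of related genes (blue), with the list's median as a black line and the genes described in the text named. All 10 members lie below 0 with a median of -0.42, while the medians of the other lists run from -0.21 to 0.08.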

How the data were processed

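Per the file headers, the authors extracted 1-colour (Cy3) spot intensities with Agilent Feature Extraction 10.5.1.1; the deposited processed intensity is background-subtracted and detrended, on a linear scale. Flags in the same deposited files, other values than intensities, mark spots well above background and outliers. A further deposited table gives each probe a score, scaled to a mean of 0 and an SD of 1 on every array; its processing is not given in the sources used here; multiplied by 3.25 it served as an alternative. Coordinates of probes are mm9, per the file headers.

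From the intensities, log2 values without outlier spots were averaged per probe and the array's 75th percentile was subtracted. Probes well above background on at least 5 of 28 arrays were kept. The probe with the highest mean stood for a gene, which left 21848 genes. Of 41174 probes, 25089 were named by accession, 6339 by symbol and 1639 by synonym through RefSeq, and 8107 kept the array's name. All arrays were fitted in 1 model (limma 3.58.1, R 4.3.3; two-sided, Benjamini-Hochberg), checked on simulated data. Relations used 100000 permutations (SciPy 1.17.1). Groups and replicate numbers came from the labels, and slide and scan day from the file headers.

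All 10 members are named; of the 4 related lists, genes past the threshold and the 2 per list with the smallest p over the 5 diets; and the 3 genes closest to each of 4 members by Pearson r, of which 1 is not reported here. The members, lists and rules were chosen with earlier results of these data known. Same-numbered livers of HFD and SD deviated together (5 pairs, r from 0.217 to 0.698), though the labels name no pairing. SD 1 and HFD 1 shared slide 1 (r = 0.517), and SD 2 and HFD 2 shared slide 3 (r = 0.217). In the pairs that shared a slide, pairing and slide cannot be told apart. The livers numbered 3, 4 and 5 lay on different slides within each pair, with r of 0.654, 0.484 and 0.698. The cause of the shared deviation was not tested. In each of the other 7 comparisons r took both signs, for example from -0.284 to 0.695 in HQR against SD. Alternatives varied normalization, background, filter, probes, blocks, the variance model, the samples fitted and single arrays. Each array came from a separate mouse, and their number limits the precision.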

Additional observations from a re-analysis of the deposited data

How the results depend on the processing

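Of 3788 values of single members under the alternatives, 3773 kept their side of the threshold and their direction or moved in sign by under 1 SE (101 of them), 11 passed newly and 4 changed sign by more. In HFD against SD, 1 member (Cyp8b1) passed with slide as a random block, and between 0 and 1 when 1 array was left out. That block called 81 genes in all, against 25 in the main fit. In the 4 high fat groups against SD, 2 members (Cyp8b1 and Baat) passed with slide as a random block. There it called 203 genes in all, against 35 in the main fit. The same 2 members passed with only probes well above background on all 28 arrays. With an intensity trend and robust estimation 1 member passed. Between 0 and 1 passed when 1 array was left out, the 1 being Cyp8b1 without SD 1, HQ 5, HR 1 or HQR 1. Sign changes were HQ against HFD for Cyp8b1 with slide as a block (-0.0304), and with normexp for Nr1h4 (-0.27) and Abcb11 (-0.28), and HQR against SD for Abcb11 with quantile normalization (0.0705); none of these values passed before or after, and the cause was not tested. Normexp moved the median of all genes by 0.25 in HQ against HFD and by 0.24 in HQ against SD. Relations: Nr0b2 with Cyp7a1 was -0.59 and Nr1h4 with Nr0b2 0.0246 (adjusted permutation p = 0.908) with slide means removed; Slc10a1 with Abcb11 passed in the deposited value table (r = -0.64, adjusted permutation p = 0.00858) and with quantile normalization (r = -0.62, 0.0124); Nr0b2 with Cyp8b1 was -0.0232 (0.912) with quantile normalization.

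With the replicate number as a block, HFD against SD gave -1.59 ± 0.36 for Cyp8b1 (adjusted p = 0.0982) and 32 genes in place of 25; the block changed no member's call in any comparison. The number of all genes called ran from 10 to 81 over the alternatives in HFD against SD and from 18 to 203 in the 4 high fat groups against SD, highest with slide as a random block in both. The contrast over the 4 high fat groups and the alternative without slide 8 were chosen after seeing the data. No group of 4 to 10 livers had a member value past Dixon's 95% limit in 50 tests. All member probes were well above background on every array, but the size of the Cyp8b1 difference depended on the background correction: with normexp it was -1.26 for HFD against SD and -0.98 for the 4 high fat groups.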
